A study of Rattus norvegicus with 9 samples.

Results

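The genes for the subunits of the proteasome, with its activators, inhibitor and assembly chaperones, were described in the frontal cortex of 9 male rats. The members were the genes typed as mRNA whose symbols begin with Psma to Psmg followed by a number and whose counts summed to at least 90 over the 9 rats. Of the 37209 genes in the table, 50 carried such a symbol and 47 of them met the rule. All 47 were abundant enough to be tested, among 16837 genes tested. The limit on the counts left out Psmb8, with 66 counts over the 9 rats, and Psma8, with 5, and the pseudogene Psme1-ps1, with 4, is also not typed as mRNA. The members just inside the limit were Psmb9, with 139 counts, and Psmc3ip, with 170. Psmc3ip shares the symbol pattern, but its product is known as a cofactor of meiotic recombination and is not a proteasome subunit.

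The rats were Wistar rats in 3 groups of 3. Control rats were left undisturbed with their mothers until weaning. Rats with maternal separation (MS) were parted from their mothers for 4 h a day from postnatal day (PND) 1 to PND 21. The third group, labelled MS+EA and called EA here, had the same separation and then electroacupuncture (EA) at the acupoints Baihui and Yintang, at 2 Hz and 2 mA for 15 min a session, every other day from PND 61 to PND 81. Control and MS rats were given isoflurane anaesthesia alone on those days, and EA rats anaesthesia with needles and current. A sham EA group was not among the sequenced rats, so needling and current cannot be told apart, and no group had EA without separation. The labels give an age of 14 weeks and do not name litters, so p-values measure the spread between these rats, some of which may share a litter.

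The proteasome is the protease that degrades most ubiquitin-tagged proteins of a cell. Its core particle, the 20S, is a barrel of alpha rings, which gate the entry, and beta rings, which carry the cutting sites. The regulatory particle, the 19S, binds ubiquitin chains, removes them and unfolds the substrate with a ring of ATPases. In neurons the proteasome is known to turn over synaptic proteins, and in cells exposed to interferon the catalytic beta subunits are replaced by immunoproteasome forms. The subunits are needed in fixed proportions, and the transcription factor Nrf1, encoded by Nfe2l1, is known to raise their genes together when proteasome activity falls short.

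By role, the 47 members were 7 genes of the alpha ring (Psma1 to Psma7), 4 structural genes of the beta ring (Psmb1 to Psmb4), and the 3 constitutive catalytic subunits Psmb5, Psmb6 and Psmb7. There were 2 immunoproteasome catalytic subunits, Psmb9 and Psmb10, and Psmb11, the catalytic subunit known from the thymus. The regulatory particle was represented by 6 ATPases of its base (Psmc1 to Psmc6), 3 further base subunits (Psmd1, Psmd2 and Psmd4) and 8 subunits of its lid (Psmd3, Psmd6, Psmd7, Psmd8, Psmd11, Psmd12, Psmd13 and Psmd14). The remaining genes were the 4 activators Psme1 to Psme4, the inhibitor Psmf1, 7 assembly chaperones (Psmg1 to Psmg4, Psmd5, Psmd9 and Psmd10) and Psmc3ip.

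The promoters of these genes were read from a RefSeq table of the build GRCr8, which gives 250 bases before and 50 after a transcript start. The table matched 42 of the 47 members and not Psma7, Psmb11, Psmd6, Psmd12 and Psmd14. A set of 4 motifs, chosen after the data had been seen, was searched on both strands. The ETS element CCGGAAG, the core letters of sites bound by ETS factors, was found in 15 of the 42 promoters, or 35.7%, against 8.75% of all 33469 promoters in the table. The CCAAT box CCAAT was found in 21 of the 42 (50%) and in 37.5% of all promoters. The antioxidant response element core TGACNNNGC, the form of site that Nrf1 and its relatives bind, was found in 8 (19.05%) and in 12.1% of all. The longer form TGANTCAGC, which can overlap the core, was in 0 of the 42 and in 1.11% of all promoters. Such matches are descriptions of letters in these windows.

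The ETS element had the widest gap between members and all promoters. Over the members its matches began from 148 bases before the start (Psmd4) to 27 after it (Psmd7). The 120 bases before the start are given in the 5′ to 3′ direction of the gene for 4 members, chosen after the motif counts had been seen. They are the most highly counted of the 8 members that held it within these bases and whose gene model in RefSeq begins at the same base as the table's start. The closeness of these 4 matches to the start thus follows from the choice. The stretches lie at chr6:125122377-125122496 on the plus strand (Psmc1, an ATPase of the base), chr10:86757813-86757932 on the plus strand (Psme3, the nuclear activator), chr15:21022194-21022313 on the plus strand (Psmc6, an ATPase of the base) and chr2:185134562-185134681 on the minus strand (Psmb4, a structural beta subunit). Capitals mark the ETS element on either strand. The match began 21 bases before the start in Psmc1, 28 in Psme3, 69 in Psmc6 and 22 in Psmb4.
Psmc1: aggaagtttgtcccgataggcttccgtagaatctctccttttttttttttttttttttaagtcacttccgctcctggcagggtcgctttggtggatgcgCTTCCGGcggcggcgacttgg
Psme3: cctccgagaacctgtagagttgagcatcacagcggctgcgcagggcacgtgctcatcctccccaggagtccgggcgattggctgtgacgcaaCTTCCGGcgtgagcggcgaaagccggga
Psmc6: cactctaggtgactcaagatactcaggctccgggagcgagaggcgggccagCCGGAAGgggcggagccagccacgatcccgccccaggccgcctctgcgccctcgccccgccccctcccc
Psmb4: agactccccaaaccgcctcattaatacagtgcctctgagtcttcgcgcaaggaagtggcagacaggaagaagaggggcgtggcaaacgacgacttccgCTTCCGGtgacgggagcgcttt

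The antioxidant response element core is shown in Psmb5, the chymotrypsin-like catalytic subunit, because Psmb5 was among the members with an unadjusted p under 0.05 in the results that follow. The stretch lies at chr15:32047380-32047499 on the minus strand, and capitals mark the match, which began 60 bases before the start.
Psmb5: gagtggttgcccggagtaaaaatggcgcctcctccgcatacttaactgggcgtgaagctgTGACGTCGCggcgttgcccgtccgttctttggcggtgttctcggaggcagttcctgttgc

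Counts were scaled to CPM, the counts of a gene relative to edgeR's TMM-normalized library size. CPM is not adjusted for transcript length, so the level of a gene was compared between rats and not with that of other genes. The 47 genes together took 0.233% to 0.263% of all counts in the 9 rats. Their summed level had a mean of 2501 ± 91.6 CPM for the Control, 2452 ± 109 CPM for the MS and 2483 ± 125 CPM for the EA group (SD, n = 3). The rats of each group spanned nearly the same range, from 2429 to 2604 CPM in Control, 2340 to 2557 CPM in MS and 2350 to 2597 CPM in EA. The summed level of the core particle was 648.7 ± 32.0, 633.6 ± 31.2 and 649.9 ± 40.2 CPM (SD, n = 3) in Control, MS and EA rats. That of the base and lid of the regulatory particle was 1478 ± 52.7, 1442 ± 73.3 and 1458 ± 78.1 CPM (SD, n = 3). The ratio of the regulatory to the core sum stayed between 2.19 and 2.33 in the 9 rats. Its mean was 2.28 ± 0.036 in Control, 2.28 ± 0.073 in MS and 2.24 ± 0.019 in EA rats (SD, n = 3). The groups overlapped in each of these sums and in the ratio.

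The genes also moved by little from rat to rat. The median coefficient of variation within groups was 8.08% for the members and 11.4% for all genes tested, and the members had the higher median level, 45.9 against 14.9 CPM. Psme3 had the lowest within-group variation, 2.73%, and Psmc3ip the highest, 36.9%. Between the highest and the lowest of the 9 rats, the ratio had a median of 1.35 and was under 1.5 for 36 of the 47 genes. Psmd13, a subunit of the lid, ranged from 49.2 to 52.5 CPM, a ratio of 1.07. Psmd4, the ubiquitin receptor of the base, ranged from 40.2 to 44.8 CPM, and Psme3 from 113 to 128 CPM. The widest ratios were those of genes with few counts, at 3.72 for Psmc3ip, 2.81 for Psmb9, 2.34 for Psmb11 and 2.09 for Psme2.

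Highest and lowest values were each held by rats of all 3 groups, and how the variation divides between rats and groups was not tested. The EA rat C16 held the highest value for 12 of the 47 genes, the Control rat A1 for 10 and the Control rat A2 for 7. The MS rat B3 held the lowest value for 11 genes, A1, C3 and C10 for 8 each and C16 for 7. Highest values numbered 5.67 ± 5.69 a rat in EA, 6.33 ± 4.04 in Control and 3.67 ± 1.53 in MS (SD, n = 3). Lowest values numbered 7.67 ± 0.577, 3.33 ± 4.16 and 4.67 ± 5.51 in that order. The median deviation from the gene means was -0.07 in the EA rat C3, -0.01 in C10 and 0.05 in C16 (log2 CPM). The MS rats spread from -0.05 in B3 to 0.04 in B6, and the Control rats from -0.01 in A6 to 0.06 in A2.

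**Figure D1:**
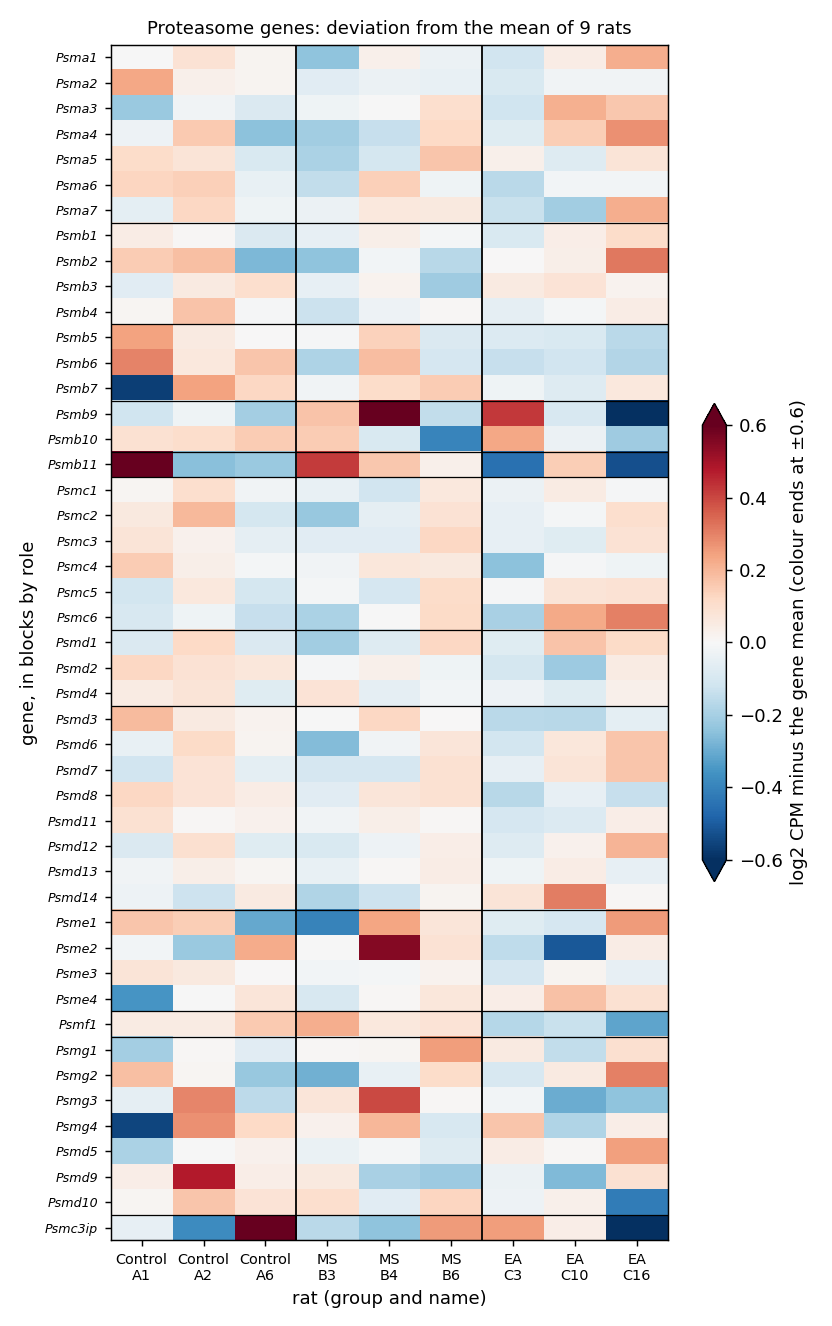
Deviation of each of the 47 genes (rows, in blocks by role) from its mean over the 9 rats (columns, by group), in log2 CPM, with colours ending at 0.6 either way. Some columns lean to a tint, such as the paler red of the Control rat A2 and the blue of the MS rat B3, without holding it in every cell. The EA rat C16 has strong cells of both colours, and most blocks of genes mix both tints within a group. Psmf1 is blue in the 3 EA rats and red in the others, and the darkest cells are those of the low-count genes Psmb9, Psmb11 and Psmc3ip and of Psmb7 in A1.

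The comparison of MS with Control rats asks what separation early in life left in the adult cortex. None of the 47 genes passed the test between them. With edgeR's quasi-likelihood test and Benjamini-Hochberg adjustment over all genes tested, 0 of the 47 passed an adjusted p under 0.05 with a fold change above 1.5, against 0.0238% of all genes tested. At an unadjusted p under 0.05, 0 were higher, against 7.06% of all genes, and 0 were lower, against 3.55%. DESeq2 and limma-trend likewise called 0 members. The fitted log2 fold changes ran from -0.39 (Psmc3ip) to 0.42 (Psmb9), with a median of -0.03 against -0.00 over all genes, and 32 of the 47, or 68.1%, were below 0, against 50.3% of all genes. The median size of the log2 fold change, without its sign, was 0.064 for the members and 0.130 for all genes.

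The interval of each difference shows how large a change these rats could have hidden. For 42 of the 47 genes, or 89.4%, the 95% interval of MS against Control lay wholly within a fold change of 1.5 in either direction, against 60.3% of all genes tested. The members had higher counts than most genes, which narrows their intervals. The 5 whose interval reached beyond were Psmb9, Psmb11, Psme2, Psmd9 and Psmc3ip.

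Of the members with the smallest p between MS and Control, Psmd9, a chaperone of base assembly, came first. It was at 10.6, 14.3 and 10.6 CPM in the Control rats A1, A2 and A6 and at 10.7, 9.01 and 8.84 CPM in B3, B4 and B6 of the MS group. The groups overlapped through B3, and the log2 difference was -0.31 (SE 0.161, adjusted p = 0.518 in edgeR), or -0.16 without the Control rat A2. Psmg1, a chaperone that pairs alpha subunits during ring assembly, was at 18.1, 21.0 and 19.96 CPM in Control and 21.0, 21.1 and 24.9 CPM in MS rats, a log2 difference of 0.18 (adjusted p = 0.598 in edgeR), or 0.094 without B6. Psmb2, a structural beta subunit, was at 18.3, 18.7 and 13.7 CPM in Control and 13.9, 16.3 and 14.7 CPM in MS rats, and these overlapped too. The groups did not overlap for 2 members, both lower in MS rats, against 7.53% of all genes lower and 10% higher. One was Psma2 of the alpha ring, with 38.0, 33.1 and 32.7 CPM in Control and 30.8, 31.6 and 31.3 CPM in MS rats. The other was Psmd2, a scaffold of the base, with 182, 177 and 175 CPM in Control and 166, 171 and 164 CPM in MS rats. In these genes the gap between the groups was no wider than the spread within Control, and the adjusted p in edgeR was 0.567 for Psma2 and 0.682 for Psmd2.

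EA and MS rats shared the history of separation and differed in the EA sessions. Again 0 of the 47 genes passed both thresholds in edgeR, against 0.0178% of all genes tested, and 0 were called by DESeq2 or limma-trend. At an unadjusted p under 0.05, 2 members were lower in EA rats, Psmf1 and Psmd3, which is 4.26% of the members against 6.42% of all genes, and 0 were higher, against 6.01%. The fitted log2 fold changes ran from -0.45 (Psmb11) to 0.26 (Psmb2), with a median of 0.00 for the members and for all genes, and 23 of the 47, or 48.9%, were below 0, against 49.9% of all genes. The interval lay within a fold change of 1.5 for 41 members, or 87.2%, against 59.4% of all genes. The count of 2 lower members was 1 without any one of the rats A2, A6, B4 and C3. Members higher in EA than in MS rats numbered 3 without C3, 2 without B6 and 1 without A6. The share over all genes is not given for these smaller fits, so their counts have no background.

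Psmf1 encodes PI31, a protein known as an inhibitor of the core particle in the test tube and as an adaptor for its transport in axons. It had the smallest p of the 47 in both comparisons with EA rats. Its level was 28.3, 28.3 and 30.5 CPM in the Control rats, 31.8, 28.5 and 29.0 CPM in the MS rats, and 24.3, 24.9 and 21.9 CPM in the EA rats. Every EA rat was below every other rat, and Control and MS rats overlapped. The group means were 29.0 ± 1.28, 29.8 ± 1.77 and 23.7 ± 1.57 CPM (SD, n = 3). The log2 difference from MS was -0.33 (SE 0.0929, unadjusted p = 0.00398, adjusted p = 0.241 in edgeR), with a 95% interval of the fold from 0.694 to 0.917. From Control it was -0.29 (SE 0.0929, unadjusted p = 0.00823, adjusted p = 0.0862 in edgeR), with an interval from 0.711 to 0.940. Neither passed the adjustment over all genes. When each rat was left out in turn, the difference from MS stayed between -0.36 and -0.28 and that from Control between -0.33 and -0.24. In GRCr8 the gene overlaps a lncRNA gene, which is not among the genes counted by that symbol. The strand setting of the counting is not given in the sources used here.

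Psmd3, a scaffold subunit of the lid, was at 93.7, 85.2 and 83.1 CPM in Control, 81.9, 89.5 and 82.1 CPM in MS and 73.3, 73.2 and 78.8 CPM in EA rats. The EA rats were again below all others. The log2 difference was -0.17 from MS (SE 0.0732, adjusted p = 0.369 in edgeR) and -0.22 from Control (SE 0.0731, adjusted p = 0.0976 in edgeR). Psmg3, a chaperone of alpha ring assembly, was at 5.54, 6.94 and 5.29 CPM in MS and 5.20, 4.29 and 4.45 CPM in EA rats, which did not overlap, but the Control rats at 5.08, 6.46 and 4.73 CPM spanned the EA rat C3. Members whose 3 EA rats were above the 3 MS rats were Psmb2, Psmb3 and Psmd5, 3 against 8.27% of all genes, and those below were Psmf1, Psmd3 and Psmg3, 3 against 9.60%. Psmb2 was at 16.5, 16.9 and 20.5 CPM in EA rats, where the MS rats were at 13.9 to 16.3 CPM and the Control rats at 13.7 to 18.7 CPM. Its log2 difference from MS was 0.26, with an adjusted p of 0.468 in edgeR, and 0.16 without the EA rat C16.

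Further members near the top by p between EA and MS overlapped between the groups. Psmd14, the deubiquitinase of the lid, was at 11.4, 11.9 and 13.1 CPM in MS and 13.7, 16.02 and 13.0 CPM in EA rats. Psma4 of the alpha ring was at 56.7, 59.5 and 71.1 CPM in MS and 62.2, 72.5 and 79.3 CPM in EA rats. Psme2, the beta chain of the interferon-inducible activator, was at 3.62, 5.32 and 3.85 CPM in MS and 3.26, 2.55 and 3.74 CPM in EA rats. Their adjusted p in edgeR was 0.468, 0.542 and 0.491.

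EA and Control rats differed in both separation and EA, so the effects of each cannot be told apart here. This comparison uses the same EA and Control rats as the others. It moved the most genes over the whole table, and 0 of the 47 members passed both thresholds in edgeR against 1.37% of all genes tested. At an adjusted p under 0.05 with no limit on the fold change it was 0 of the 47, against 5.40%. At an unadjusted p under 0.05, 6 members were lower in EA rats, or 12.8% against 10.6% of all genes, and 1 was higher, or 2.13% against 11.9%. The lower count changed when single rats were left out, to 1 without the Control rat A1, 2 without the EA rat C3 and 3 without the EA rat C16. The share over all genes is not given for these smaller fits. Without A1 the log2 differences of the 6 genes lay between -0.31 (Psmf1) and -0.14 (Psmb5). With all rats they lay between -0.32 (Psmb6) and -0.18 (Psmd2). Without C3, 2 members of higher level passed the adjusted p alone, below the fold threshold, namely Psma3 at a log2 difference of 0.30 (adjusted p = 0.0439 in edgeR) and Psmc6 at 0.36 (adjusted p = 0.0433 in edgeR). Over the 47 genes the median log2 fold change was -0.03 against 0.01 for all genes, and 26, or 55.3%, were below 0, against 49.1% of all genes. The range was -0.45 (Psmc3ip) to 0.21 (Psmc6). The interval lay within a fold change of 1.5 for 39 members, or 83.0%, against 55.6% of all genes. Those whose interval reached beyond were Psmb6, Psmb9, Psmb11, Psme2, Psmg3, Psmd9, Psmd10 and Psmc3ip.

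**Figure D2:**
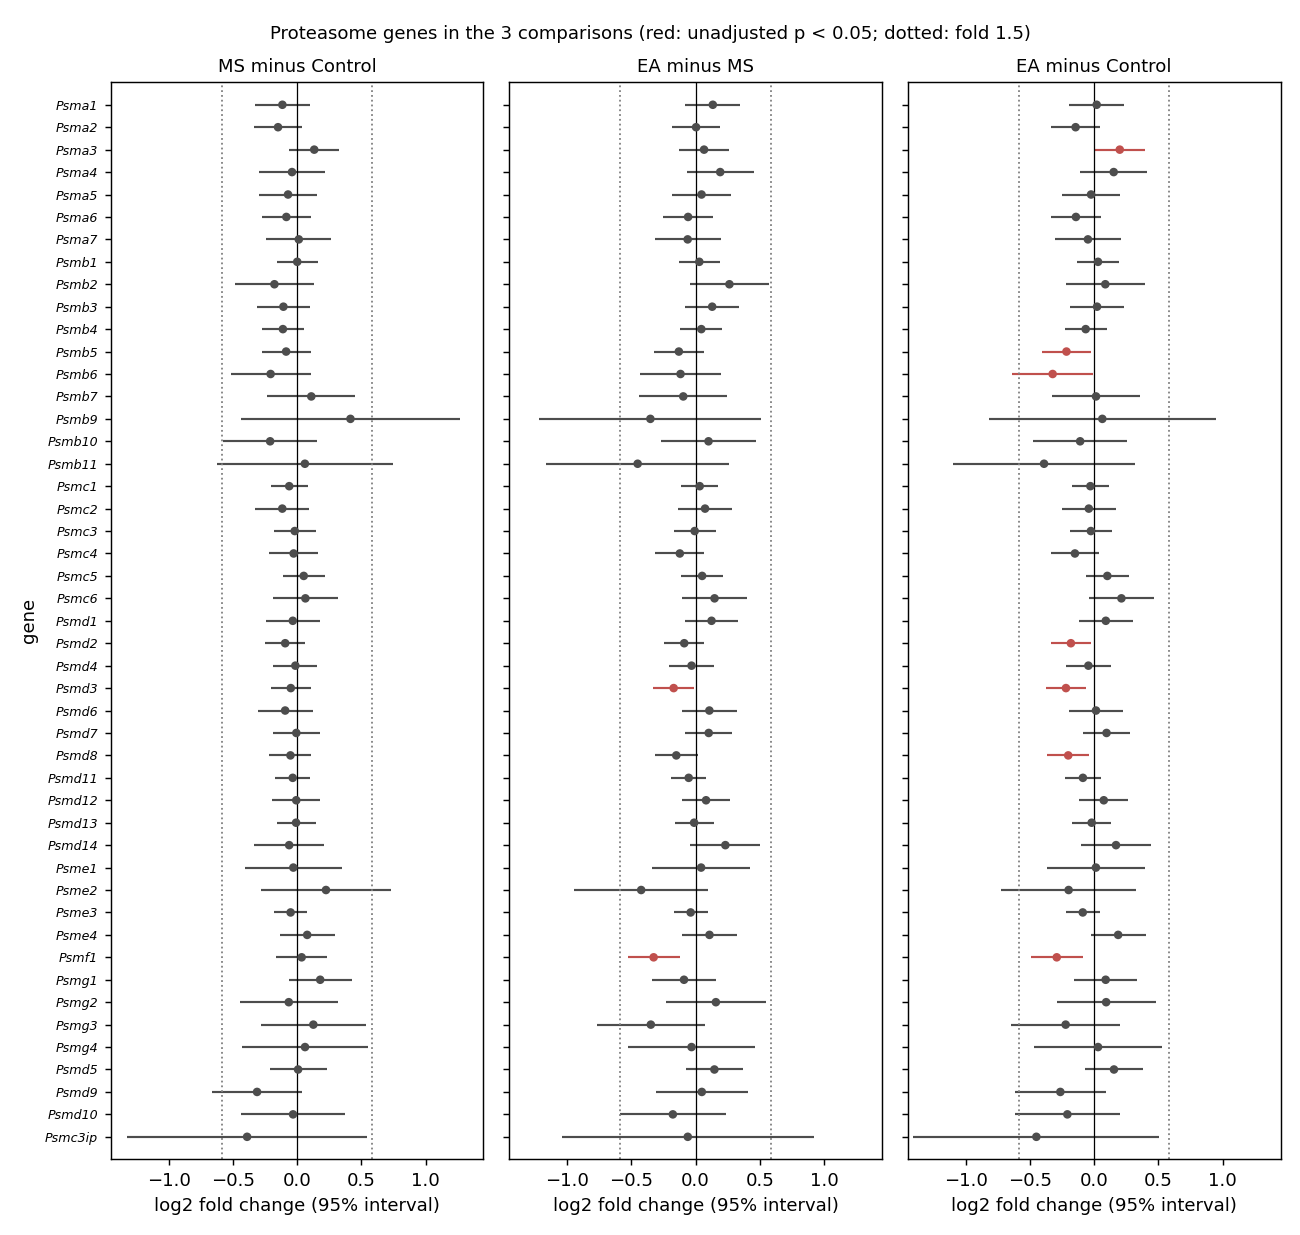
Fitted log2 fold change (x axis) of each of the 47 genes (y axis, by role) in the 3 comparisons, with 95% intervals from edgeR, where red marks an unadjusted p under 0.05 and dotted lines a fold change of 1.5. All 47 points lie between the dotted lines in each panel, and the red ones number 0, 2 and 7.

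The 6 lower genes were Psmf1 and Psmd3, Psmd8, Psmd2, Psmb5 and Psmb6. Psmd8, a lid subunit, was at 55.4, 53.8 and 52.4 CPM in Control, 48.5, 53.4 and 54.1 CPM in MS and 45.2, 49.1 and 46.1 CPM in EA rats. Its EA rats were below the Control rats and overlapped the MS rats, with a log2 difference from Control of -0.20 (SE 0.0761, adjusted p = 0.138 in edgeR). Psmd2 was at 155, 144 and 173 CPM in EA rats, a log2 difference from Control of -0.18 (SE 0.0710, adjusted p = 0.153 in edgeR). The EA rat C16 stood apart from the other EA rats and close to the lowest Control rat.

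The catalytic subunits are the proteases themselves. Psmb5 was at 57.4, 50.3 and 48.6 CPM in Control, 48.2, 53.4 and 45.8 CPM in MS and 45.8, 45.5 and 43.3 CPM in EA rats. The EA rats were below the Control rats, of which A1 was the highest, and the log2 difference of EA from Control was -0.22 (SE 0.0887, adjusted p = 0.172 in edgeR), or -0.14 without A1. Psmb6, the caspase-like subunit, was at 10.6, 9.02 and 9.70 CPM in Control, 7.58, 9.82 and 8.06 CPM in MS and 7.84, 7.97 and 7.63 CPM in EA rats. The EA rats were below the Control rats and inside the range of the MS rats, at a log2 difference from Control of -0.32 (SE 0.146, adjusted p = 0.212 in edgeR). Psmb7, the trypsin-like subunit, was at 30.7, 53.7 and 49.5 CPM in Control, 44.8, 49.0 and 50.5 CPM in MS and 44.6, 43.0 and 47.4 CPM in EA rats. The Control rat A1 stood far below the other 8 for this gene, although its library was the deepest and it had 573 counts. With A1 the log2 difference of EA from Control was 0.01, and without it -0.20 (adjusted p = 0.314 in edgeR). For MS against Control it was 0.11 with A1 and -0.10 without. That gene was singled out after its values had been seen.

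The single higher gene, Psma3 of the alpha ring, was at 80.98, 93.3 and 89.1 CPM in Control, 92.8, 94.5 and 102 CPM in MS and 87.1, 110 and 106 CPM in EA rats. The EA rat C3 lay inside the Control range. The log2 difference from Control was 0.20 (SE 0.0907, adjusted p = 0.216 in edgeR). Psme4, the nuclear activator PA200, followed at 89.0, 114 and 120 CPM in Control, 107, 114 and 119 CPM in MS and 117, 129 and 121 CPM in EA rats, with a log2 difference of 0.19 (adjusted p = 0.288 in edgeR) and overlap through A6. Without the low Control rat A1 the difference was 0.066. Between EA and Control the groups did not overlap for 7 members that were lower, these 6 and Psma2, against 12.9% of all genes, and for 0 that were higher, against 13.0%. Psma2 was at 30.3, 31.8 and 31.8 CPM in EA rats.

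**Figure D3:**
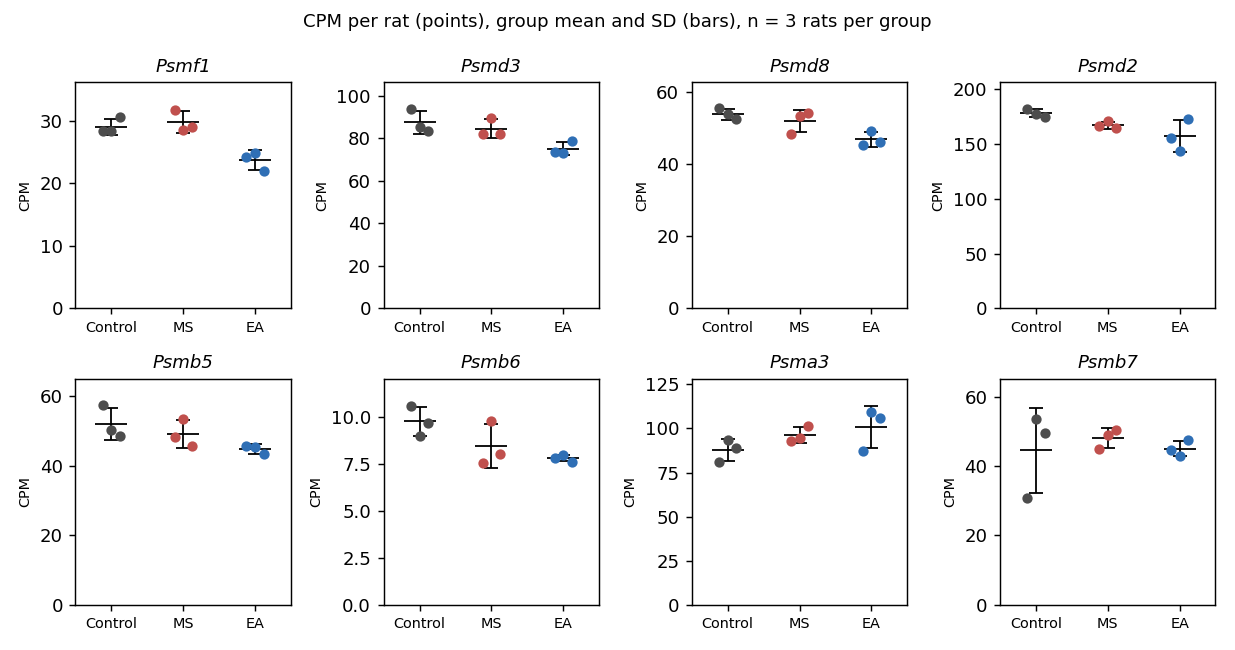
CPM of 8 members (panels, y axes from 0) in the 9 rats (points) by group (x axis), with the mean and SD of the 3 rats of a group as bars. The EA rats lie below all other rats for Psmf1 and Psmd3 and within reach of MS rats for Psmd8, Psmd2, Psmb5 and Psmb6, and a single low Control rat stands out for Psmb7.

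By role, all 47 fitted fold changes lay within 1.5 in either direction in each comparison, with ranges that differed between roles. The log2 differences lay between -0.32 and 0.11 in the constitutive catalytic subunits. They lay between -0.42 and 0.23 in the activators, both in Psme2, and between -0.35 and 0.18 in the assembly chaperones. The inhibitor Psmf1 reached -0.33, and the low-count genes Psmb9 and Psmb11 0.42 and -0.45. Sums over a role follow its most highly counted genes. In the alpha ring, 5 of 7 genes were below 0 in MS against Control, 2 in EA against MS and 4 in EA against Control, with log2 differences between -0.15 and 0.20 in all 3. The 4 structural beta genes lay between -0.18 and 0.26. The 6 ATPases of the base lay between -0.15 (Psmc4, EA against Control) and 0.21 (Psmc6, EA against Control), and 0 of them had an unadjusted p under 0.05 in any comparison. The 3 other base subunits lay between -0.18 and 0.12. In the lid, 8 of 8 genes were below 0 in MS against Control, where 50.3% of all genes were, and their log2 differences lay between -0.09 and -0.01. In EA against MS and in EA against Control 4 of the 8 were below 0. The activators Psme1 to Psme4 summed to 255.9 ± 11.9, 257.8 ± 11.7 and 263.0 ± 10.3 CPM (SD, n = 3) in Control, MS and EA rats. The 7 assembly chaperones summed to 75.5 ± 6.49, 76.2 ± 1.34 and 76.5 ± 5.49 CPM (SD, n = 3). The 3 constitutive catalytic subunits summed to 106.5 ± 7.26, 105.7 ± 5.93 and 97.7 ± 1.03 CPM (SD, n = 3), and their EA rats, at 98.2, 96.5 and 98.3 CPM, were below the MS rats, at 100.6 to 112.2 CPM, and the Control rats, at 98.6 to 113.0 CPM. The gap between the highest EA rat and the lowest Control rat, A1, was small beside the spread within Control. The sum of A1 holds its low Psmb7 value of 30.7 CPM, while A1 was the highest of all rats for Psmb5 and Psmb6.

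**Figure D4:**
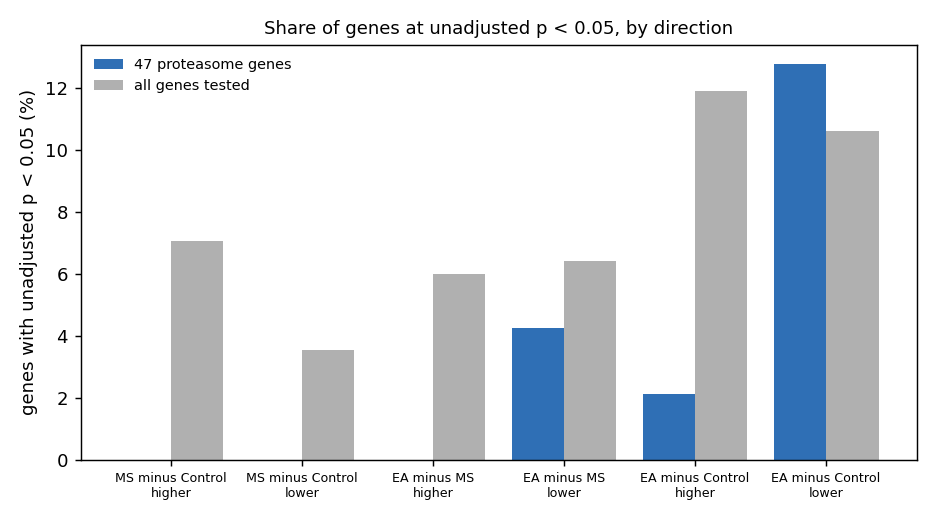
Share of the 47 members (blue) and of all 16837 genes tested (grey) at an unadjusted p under 0.05 in edgeR (y axis, percent), by comparison and direction (x axis). The members' share is below that of all genes in each case but the last, genes lower in EA than in Control rats, where it is 12.8% against 10.6%.

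Immunoproteasome subunits replace the constitutive ones in cells exposed to interferon. Psmb9 was at 0.86, 0.91 and 0.81 CPM in Control, 1.05, 1.56 and 0.84 CPM in MS and 1.25, 0.87 and 0.56 CPM in EA rats. Psmb10 was at 8.94, 9.02 and 9.33 CPM in Control, 9.33, 7.88 and 6.37 CPM in MS and 9.85, 8.18 and 7.23 CPM in EA rats. The groups overlapped in both genes. The third, Psmb8, was below the limit of the rule, with 17, 8 and 9 counts in Control, 2, 5 and 6 counts in MS and 2, 6 and 11 counts in EA rats. Its Control rats were above the MS rats, in counts near the floor of 3 in B3 and C3, and no test was made on it. Psmb8 to Psmb10 together had 10.002 ± 0.815% of the counts of Psmb5 to Psmb7 in Control, 8.80 ± 1.59% in MS and 10.01 ± 1.33% in EA rats (SD, n = 3). The ratio ran from 7.26% to 11.4% over the 9 rats and its extremes were the MS rat B6 and the EA rat C3. The ratio is not per length and is compared between rats alone. Psmb11 was at 3.53, 1.83 and 1.87 CPM in Control, 2.92, 2.44 and 2.22 CPM in MS and 1.60, 2.41 and 1.51 CPM in EA rats. These overlapped, and A1 was the highest.

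Genes that work with the proteasome but carry other names were described as lists. Their counts at an unadjusted p under 0.05 are to be read against those of all genes tested, of which 7.06% were higher and 3.55% lower in MS than in Control rats, 6.01% higher and 6.42% lower in EA than in MS rats, and 11.9% higher and 10.6% lower in EA than in Control rats. Of the subunits and cofactors outside the Psm names, 13 of 16 were tested. At an unadjusted p under 0.05, 1 was higher in MS than in Control rats, 0 differed between EA and MS, and 3 were higher in EA than in Control rats, with 0 lower in any comparison. Those 3 were Usp14, Zfand5 and Txnl1. Usp14, the ubiquitin protease that docks on the regulatory particle, was at 65.6, 63.3 and 60.6 CPM in Control, 68.2, 101 and 94.9 CPM in MS and 72.2, 105 and 87.3 CPM in EA rats. Every separated rat was above every Control rat, and B3 and C3 were the closest to them. The log2 difference from Control was 0.48 in MS (SE 0.145, adjusted p = 0.234 in edgeR) and 0.48 in EA rats (SE 0.145, adjusted p = 0.0726 in edgeR). Without C3 the latter was 0.61 with an adjusted p of 0.0309 in edgeR, past both thresholds. With no rat of these groups left out, the EA difference also passed the adjusted p, below the fold threshold, under 3 alternatives. They were DESeq2's Wald test (0.0183), the 6 rats compared (0.0442 in edgeR) and the filter of at least 1 count (0.00500 in edgeR). The MS difference passed it with the filter of at least 1 count, at 0.47 (adjusted p = 0.0143 in edgeR), also below the fold threshold. Adrm1, a ubiquitin receptor of the regulatory particle, was at 55.4, 47.9 and 50.2 CPM in Control, 48.5, 55.8 and 45.5 CPM in MS and 47.4, 46.0 and 47.2 CPM in EA rats. Pomp, the chaperone of core maturation, had 2 to 6 counts a rat and was not tested.

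In the list of Nrf1 and its regulators, 14 of 14 were tested. At an unadjusted p under 0.05, 0 differed between MS and Control, 4 were lower in EA than in MS rats and 5 lower in EA than in Control rats, with 0 higher. The shares over all genes were 6.42% lower in EA than in MS rats and 10.6% lower in EA than in Control rats. Nfe2l1 was at 629, 569 and 603 CPM in Control, 574, 554 and 578 CPM in MS and 510, 494 and 518 CPM in EA rats, so that every EA rat was below every other rat. The log2 difference was -0.24 from Control (SE 0.0613, adjusted p = 0.0410 in edgeR) and -0.17 from MS (SE 0.0613, adjusted p = 0.319 in edgeR). The former passed the adjusted p but not the fold threshold. Its adjusted p was between 0.0461 and 0.165 when each rat was left out, and under 0.05 only without A2. Keap1, a sensor known for holding back the related factor Nrf2, had a log2 difference from Control of -0.27 in EA rats (adjusted p = 0.0522 in edgeR), and Syvn1, a ubiquitin ligase of the endoplasmic reticulum, one of -0.30 (adjusted p = 0.0526 in edgeR). Both lay near the threshold, and with DESeq2's Wald test the adjusted p was 0.0251 for Keap1 and 0.0217 for Syvn1, each below the fold threshold. Ddi2, the protease that releases active Nrf1, was at 194 to 207 CPM in Control, 196 to 250 CPM in MS and 197 to 208 CPM in EA rats.

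Of ubiquitin and the enzymes that activate and carry it, 20 of 22 genes were tested. At an unadjusted p under 0.05, 5 were higher and 2 lower in MS than in Control rats, 1 was lower in EA than in MS rats, and 4 were higher and 7 lower in EA than in Control rats. Uba6, an activating enzyme for ubiquitin and its relative FAT10, was at 43.7, 46.95 and 41.5 CPM in Control, 55.9, 54.2 and 52.2 CPM in MS and 58.9, 60.2 and 60.8 CPM in EA rats. The 3 groups did not overlap at all. The log2 difference from Control was 0.30 in MS (SE 0.0738, adjusted p = 0.164 in edgeR) and 0.44 in EA rats (SE 0.0740, adjusted p = 0.00944 in edgeR), the latter below the fold threshold. Ube2m, which carries the ubiquitin relative NEDD8, had a log2 difference of -0.33 in EA from Control (adjusted p = 0.0455 in edgeR). It was above 0.05 when any one rat was left out, from 0.0552 to 0.180. All 16 shuttles and p97 genes were tested, with 0 at an unadjusted p under 0.05 in MS against Control, 1 higher and 2 lower in EA against MS, and 2 higher and 3 lower in EA against Control. Ubqln4, a shuttle that brings ubiquitinated proteins to the proteasome, was at 135, 126 and 129 CPM in Control, 129, 120 and 124 CPM in MS and 105, 107 and 106 CPM in EA rats, a log2 difference from Control of -0.30 (SE 0.0608, adjusted p = 0.0207 in edgeR), also below the fold threshold. Without single rats its adjusted p reached 0.0962, the value without A1.

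The MHC class I pathway receives the peptides that proteasomes make. Of 15 listed genes 14 were tested, with 1 higher in MS than in Control rats, 1 higher and 1 lower in EA than in MS rats, and 2 higher and 1 lower in EA than in Control rats at an unadjusted p under 0.05. B2m, the light chain of class I molecules, was at 118, 111 and 104 CPM in Control, 111, 138 and 120 CPM in MS and 130, 99.0 and 136 CPM in EA rats, which overlapped. Erap1, which trims peptides in the endoplasmic reticulum, was at 30.1, 29.7 and 32.1 CPM in Control, 34.2, 42.7 and 34.8 CPM in MS and 42.5, 35.0 and 36.1 CPM in EA rats. Its Control rats were below the rest, at an adjusted p of 0.374 for MS and 0.118 for EA in edgeR. In these 5 lists together 0 genes passed both thresholds in any comparison with all 9 rats in edgeR.

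The libraries and their cell markers also differed between groups. Total counts were 16153292 to 19007907 in Control, 16106381 to 17243320 in MS and 12479905 to 14913736 in EA rats, so depth and EA cannot be told apart. The lncRNA share of the counts was higher in every EA rat, at 1.07 ± 0.0816%, than in any Control or MS rat, at 0.870 ± 0.0627% and 0.903 ± 0.0567% (SD, n = 3). Cortical neuron markers were abundant, with 12 of 12 excitatory markers tested, and the summed excitatory level was 4714 to 5540 CPM in Control, 4838 to 4947 CPM in MS and 4200 to 4340 CPM in EA rats. In EA against Control, 3 of the 12 (Slc17a7, Fezf2 and Camk2a) were lower at an adjusted p under 0.05 in edgeR, against 5.40% of all genes in either direction. Red blood cell genes summed to 94.7 to 200 CPM in Control and 212 to 307 CPM in separated rats. At an unadjusted p under 0.05 in edgeR, 4 of the 6 were higher in MS than in Control rats, against 7.06% of all genes. In EA against Control 3 were higher, against 11.9%. Microglial genes summed to 377 to 422, 356 to 401 and 319 to 405 CPM, and endothelial genes to 216 to 246, 277 to 336 and 245 to 291 CPM, in Control, MS and EA rats. Of 9 endothelial genes tested, 4 were higher in MS than in Control rats at an unadjusted p under 0.05, against 7.06% of all genes. In EA against MS 3 were lower, against 6.42%, and in EA against Control 2 were higher, against 11.9%. Oligodendrocyte genes summed to 2283 to 3480, 2015 to 3123 and 2213 to 4502 CPM in these groups. In EA against MS their median log2 fold change was 0.40 and 2 of 10 were higher at an unadjusted p under 0.05, against 6.01% of all genes. Astrocyte genes summed to 4795 to 5746, 5261 to 5612 and 4537 to 5377 CPM, with 2 of 10 lower in EA than in MS rats, against 6.42%. Inhibitory neuron genes summed to 500 to 535, 491 to 636 and 489 to 649 CPM. Genes of subcortical or other tissue summed to 101 to 121, 97.5 to 160 and 86.1 to 112 CPM. Of the 8 tested, 3 were lower and 2 higher in EA than in MS rats at an unadjusted p under 0.05 in edgeR. Over all genes these shares were 6.42% and 6.01%. The median log2 fold change of the 8 was -0.72 and Oxt and Avp were first by p. In MS against Control 2 of the 8 were higher and 0 lower, against 7.06% and 3.55% of all genes. Their median there was 0.31, with Avp and Oxt first by p. In EA against Control 0 were higher and 0 lower, against 11.9% and 10.6%. Of the 10 listed, 1 was at 0 in every rat. The part of these differences in the values of Psmf1, Psmd3, Nfe2l1 and the other genes named was not tested. In bulk tissue, fewer cells of a type and less RNA per cell cannot be told apart. In GRCr8, 13 of the 47 members overlap another gene model, among them Psmb1 with Tbp, Psmd1 with Htr2b and Psmc6 with Styx. Tbp, Htr2b and Styx are among the genes counted, so reads on shared bases could be counted for either. Some other partners, such as the lncRNA gene at Psmf1, are not among them by symbol. The reads were mapped to Rnor_6.0, where overlaps may differ.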

How the data were processed

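RNA of the frontal cortex was sequenced on an Illumina HiSeq X after removal of rRNA. After a quality filter the authors mapped the reads to Rnor_6.0 with HISAT2 2.0.4, as the submitters' processing notes name them, and deposited whole-number counts per gene without normalization. The counting program, its strand setting and the treatment of reads with several locations are not given in the sources used here. Groups came from the sample labels. The members, the lists and the motifs were chosen with earlier results of these data known.

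Counts were normalized by TMM and filtered by filterByExpr (minimum count of 10), and the 3 group means were estimated from the 9 rats in 1 model with edgeR 4.0.16 in R 4.3.3. The quasi-likelihood F test was applied to each contrast, with Benjamini-Hochberg adjustment over 16837 genes. A gene was called where the adjusted p was under 0.05 and the fold exceeded 1.5, the thresholds of the study, whose EBSeq was not run here. Standard errors were derived from the log2 fold change and the root of its F value, and 95% intervals use the moderated degrees of freedom. The biological coefficient of variation was 12.7%. An exact permutation test of 3 against 3 rats gives no p under 0.1, so p-values come from the fit across all genes. The test was run first on simulated counts with changed genes drawn from all genes tested, where it missed the recovery set for the larger changes. The draw was then limited to genes with a mean of at least 50 counts, where it met it, so the simulation does not cover the members with few counts. Recovery was counted at an adjusted p under 0.05 with no limit on the fold, a looser rule than a call. Of 200 genes changed there between MS and Control it recovered 166, but of the 50 changed by a fold of 1.5 it recovered 27. It also picked out 14 other genes. No paired analysis was possible because each group holds other animals, with at most 1 replicate number in common.

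Values in every rat are given for the catalytic subunits and for members among the 8 with the smallest p in a comparison, and other members by ranges. Of the lists, up to 3 genes per comparison with the smallest p are named, with Nfe2l1, Adrm1, Pomp and Usp14 in any case. B2m was named outside this rule after its values had been seen, and the Psmb7 values without A1 were computed after those with A1 had been seen. Alternatives were DESeq2 1.42.0, limma-trend (limma 3.58.1, prior count of 1), DESeq2 size factors (RLE), total counts, bias-adjusted deviances, filters of at least 1 count in all and of 10 counts in every rat, the 6 rats compared, and fits without each single rat. Tables and plots were made with Python 3.11.15, pandas 2.3.3, numpy 2.4.6, scipy 1.17.1 and matplotlib 3.10.9.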

Additional observations from a re-analysis of the deposited data

How the results depend on the processing

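Members past both thresholds numbered 0 in all 3 comparisons under the 8 alternatives of test, scaling, filter and samples and the 9 that left out 1 rat, and 0 with no fold threshold when all rats were kept. Without the EA rat C3, Psma3 (adjusted p = 0.0439 in edgeR) and Psmc6 (adjusted p = 0.0433 in edgeR) passed the adjusted p between EA and Control. Counts at an unadjusted p under 0.05 are small and moved more. The share over all genes is given for the main analysis alone, so the counts under the alternatives have no background. Members higher in EA than in Control rats, 1 in the main analysis, numbered 0 with DESeq2's Wald test, DESeq2 size factors, limma-trend or the 6 rats compared, and 3 with the filter of at least 1 count. Members lower in EA than in MS rats, 2 in the main analysis, numbered 1 with the filter of at least 1 count, the 6 rats compared or total counts. With total counts, 1 member was higher in EA than in MS rats and 3 were lower in EA than in Control rats, against 0 and 6, and the median log2 fold change of EA against MS was 0.046 against 0.00. Total counts moved the median of all genes in that comparison by 0.043 as well, to 0.043. Total counts also gave groups without overlap in 4 members lower in MS than in Control rats against 2, in 7 higher in EA than in MS rats against 3, and in 1 higher in EA than in Control rats against 0. When each rat was left out in turn, members lower in EA than in Control rats numbered 1 to 6 (1 without A1), those higher 0 to 2, those lower in EA than in MS rats 1 to 3, those higher 0 to 3, and those lower in MS than in Control rats 0 to 1. The median log2 fold change of EA against Control then ran from -0.068 (without C16) to 0.0088. The cause of the other shifts was not tested. The fold changes recomputed under every alternative, those of the members among the 8 with the smallest p of a comparison that the text names and of the list genes tested further, kept their sign. Among the list genes between EA and Control, the adjusted p of Keap1 was 0.0522 in edgeR, 0.0251 with DESeq2's Wald test and 0.0499 with DESeq2 size factors. That of Syvn1 was 0.0526 in edgeR, 0.0217 with DESeq2's Wald test and 0.0459 with the filter of at least 1 count. That of Zfand5 was 0.0623 in edgeR and 0.0257 with DESeq2's Wald test. For Zfand5 it was also 0.0350 with the filter of at least 1 count, 0.0444 with 10 counts in every rat and 0.0383 with total counts. Psmb7, recomputed without A1, did not keep its sign, at 0.11 with that rat and -0.10 without it between MS and Control. Genes with few counts, such as Psmb9, Psmb11 and Psmc3ip, have intervals too wide to place a change below a fold of 1.5.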

Other observations

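Cytoplasmic ribosomal protein genes and nuclear genes of oxidative phosphorylation, like the proteasome genes widely expressed parts of large complexes, were counted beside them. Of 35 ribosomal protein genes tested, 1 was higher and 7 were lower in EA than in Control rats at an unadjusted p under 0.05 in edgeR, with a median log2 fold change of -0.10, where 11.9% of all genes were higher and 10.6% lower. Of 32 oxidative phosphorylation genes tested, 0 were higher and 5 lower, with a median of -0.10. In each list 1 gene passed an adjusted p under 0.05, against 5.40% of all genes, and 0 passed the fold threshold as well. Whether these lists differ from the proteasome genes was not tested.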
